A study of Mus musculus with 58 samples.

Results

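Expression of 10 genes that define the late stage of the disease-associated microglia state, Cst7, Itgax, Clec7a, Lpl, Csf1, Spp1, Gpnmb, Ank, Igf1 and Cd9, was followed in 34 RNA-seq libraries of mouse microglia. The genes were taken by name, with earlier results of these data known. Each symbol matched 1 Ensembl identifier of the 47643 in the count files. All 10 had enough reads to be tested in each of the 4 comparisons. The libraries fell into 8 groups of 4 or 5. Wild-type primary microglia from newborn pups, shaken off mixed glial cultures, received full-length tau fibrils at 2 µg/ml for 24 h (n = 4) or vehicle (n = 4). Adult microglia were isolated with CD11b beads from male PS19 mice (n = 4), which carry human P301S tau under the prion protein promoter and so express it mainly in neurons, and from male non-transgenic (NTG) mice (n = 4). All PS19 mice and 2 NTG mice were 10.98 months old, and NTG mice 1 and 2 were 11.18 months old. Primary microglia of genotype Cx3cr1CreERT2/+; IkbkbCA F/F (IkbkbCA, n = 5) carried a constitutively active IKKβ that Cre switches on, and were compared with Cx3cr1+/+; IkbkbCA F/F cells (IkbkbWT, n = 5). Cx3cr1CreERT2/+; Ikbkb F/F cells (Ikbkb-/-, n = 4) carried an Ikbkb gene that Cre deletes, and were compared with Cx3cr1+/+; Ikbkb F/F cells (Ikbkb+/+, n = 4). All Ikbkb cultures, controls included, received 4-hydroxytamoxifen, whereas only IkbkbCA and Ikbkb-/- cells carried Cre and a disrupted Cx3cr1 allele, so that an effect of Cre or of this allele cannot be told apart from that of IKKβ. Another 24 cortex samples were not analysed here.

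Microglia enter the disease-associated state around amyloid plaques, dying neurons and demyelinated fibres. Homeostatic genes are reduced early, and lipid, lysosomal and phagocytic genes are induced later in a step that needs the receptor TREM2. IKKβ, encoded by Ikbkb, is the kinase that releases NF-κB from its inhibitor. Of the 10 genes, Clec7a (the β-glucan receptor dectin-1), Itgax (the integrin CD11c) and Cd9 (a tetraspanin) encode surface proteins. Csf1, Igf1 and Spp1 (osteopontin) encode secreted ligands, Lpl encodes lipoprotein lipase, Cst7 encodes cystatin F, an inhibitor of lysosomal cathepsins, Gpnmb encodes a lysosomal and surface glycoprotein, and Ank encodes a transporter that exports pyrophosphate and ATP.

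The libraries held between 1672052 and 8349128 reads in genes, and 12.4% to 38.3% of uniquely mapped reads lay outside genes. No replicates held identical counts. The labels do not say whether replicates came from separate cultures, so that for the primary cells p-values measure the spread between libraries only. Levels are given as CPM, read counts scaled to library size with TMM over all 34 libraries, and fold changes as log2 values ± SE from edgeR's quasi-likelihood test, with a false discovery rate (FDR) adjusted over all genes tested. A gene was called at an FDR under 0.05. Because the libraries are bulk RNA, fewer cells of a type and less RNA per cell cannot be told apart.

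The libraries were checked against their labels, and several stood apart from them. Ikbkb, the targeted gene, was at 24.6, 24.4, 18.4 and 22.2 CPM in Ikbkb-/- cells and at 52.4, 44.7, 53.0 and 55.1 CPM in Ikbkb+/+ cells, without overlap (log2 fold change -1.20 ± 0.12, FDR = 6.3e-07). Ikbkb reads thus remained in Ikbkb-/- cells, and whether the deletion was complete was not tested here. By RT-qPCR the authors had reported Ikbkb deletion in Ikbkb-/- and a rise of Ikbkb in IkbkbCA cultures. In IkbkbCA cells Ikbkb was at 44.1 to 59.5 CPM against 39.8 to 57.7 CPM in IkbkbWT cells (0.17 ± 0.12, FDR = 0.41), but 3′ reads need not cover the inserted copy, so this checks little. PS19 mouse 1, labelled male, had 175 CPM of Xist, a transcript of the inactive X chromosome of females, against 33.0, 4.43 and 1.88 CPM in the other PS19 mice, beside 121 CPM of the Y-linked Ddx3y. The 4 NTG mice, also labelled male, had 28.0 to 32.6 CPM of Xist. In the primary cells the sex mix differed between groups. Ddx3y was at 154 to 172 CPM in Ikbkb-/- and at 35.0 to 68.2 CPM in Ikbkb+/+ libraries, and it was at 172, 161 and 141 CPM in IkbkbWT libraries 1 to 3 but at 1.10 and 1.98 CPM in libraries 4 and 5. The IkbkbCA and IkbkbWT libraries also formed 3 sets over 8097 genes (libraries 1 and 2, library 3, and libraries 4 and 5 of each group). Deviations from the group mean correlated at 0.37 to 0.64 in 9 pairs of the same set and at -0.56 to -0.007 in 16 pairs of different sets. These sets were read from the data, since the labels name no batch.

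The genes lie on GRCm38 (GENCODE M21) at chr2:150570415-150578944 (Cst7), chr7:128129547-128150657 (Itgax), chr6:129461591-129472779 (Clec7a), chr8:68880491-68907448 (Lpl) and chr3:107741048-107760469 (Csf1). Spp1 lies at chr5:104435118-104441050, Gpnmb at chr6:49036546-49070929, Ank at chr15:27466677-27594909, Igf1 at chr10:87858265-87937042 and Cd9 at chr6:125460266-125494791. Clec7a is typed there as a polymorphic pseudogene and the others as protein coding. Ank overlaps Otulin on the opposite strand, which reached 119 CPM, and whether counting used the strand was not stated, so that Ank values are uncertain. Other genes overlapping a member reached at most 1.64 CPM.

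Promoter windows from RefSeq (GRCm38.p6, 250 bases before to 50 after each start) were found for 9 of the 10 members. The AP-1 motif TGANTCA, searched like all motifs on both strands, was present for 4 members, Cst7, Itgax, Gpnmb and Igf1, and in 7.81% of all 32817 windows. The kappaB motif, to which NF-κB binds, matched in Csf1 alone among the members and in 8.46% of all windows. These 5 windows are shown because they hold the AP-1 or kappaB matches, with motif matches in capitals. In Cst7 the capitals also cover an overlapping C/EBP match (TTGCNNAA, 10.8% of all windows), and in Igf1 a PU.1 match (GAGGAAG, 13.6% of all windows).
Cst7, chr2:150570165-150570464, plus strand: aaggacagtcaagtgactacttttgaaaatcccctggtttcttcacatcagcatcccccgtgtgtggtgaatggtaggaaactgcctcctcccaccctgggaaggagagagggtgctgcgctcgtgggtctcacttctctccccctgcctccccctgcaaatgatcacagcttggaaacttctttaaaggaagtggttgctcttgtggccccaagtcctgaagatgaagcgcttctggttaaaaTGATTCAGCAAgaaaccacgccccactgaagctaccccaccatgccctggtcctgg
Itgax, chr7:128129300-128129599, plus strand: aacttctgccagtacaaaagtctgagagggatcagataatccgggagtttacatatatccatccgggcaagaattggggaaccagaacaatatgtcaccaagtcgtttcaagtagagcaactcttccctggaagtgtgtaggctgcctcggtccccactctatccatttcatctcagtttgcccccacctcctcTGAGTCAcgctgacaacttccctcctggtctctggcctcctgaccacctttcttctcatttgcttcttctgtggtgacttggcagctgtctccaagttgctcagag
Gpnmb, chr6:49036268-49036567, plus strand: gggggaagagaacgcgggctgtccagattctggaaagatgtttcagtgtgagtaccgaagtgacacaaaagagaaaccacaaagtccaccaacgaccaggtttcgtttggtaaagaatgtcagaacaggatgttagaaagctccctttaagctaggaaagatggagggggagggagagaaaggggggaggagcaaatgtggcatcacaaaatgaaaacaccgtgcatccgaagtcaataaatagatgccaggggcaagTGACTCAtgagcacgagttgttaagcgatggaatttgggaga
Igf1, chr10:87860861-87861160, plus strand: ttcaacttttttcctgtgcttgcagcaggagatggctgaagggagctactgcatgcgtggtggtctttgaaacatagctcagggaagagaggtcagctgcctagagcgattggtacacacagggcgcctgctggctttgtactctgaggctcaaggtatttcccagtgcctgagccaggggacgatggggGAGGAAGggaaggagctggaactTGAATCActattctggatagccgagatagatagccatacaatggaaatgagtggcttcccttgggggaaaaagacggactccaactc
Csf1, chr3:107760420-107760719, minus strand: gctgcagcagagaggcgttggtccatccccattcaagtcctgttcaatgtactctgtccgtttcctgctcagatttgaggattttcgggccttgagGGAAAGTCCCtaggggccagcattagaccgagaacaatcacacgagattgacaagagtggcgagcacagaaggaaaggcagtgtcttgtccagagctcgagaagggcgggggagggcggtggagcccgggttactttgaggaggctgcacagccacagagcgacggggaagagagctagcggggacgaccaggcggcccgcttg
The AP-1 match began 6 bases before the RefSeq start in Cst7, 56 before it in Itgax and 37 before it in Igf1, and the kappaB match 154 bases before the start in Csf1. The Igf1 window lies inside the gene as placed above, which begins at 87858265. Its start is therefore an internal one, and no window at the gene's first base was searched. Neither the E-box CACGTG (7.15% of all windows) nor the M-box TCATGTG (3.78%) occurred in the members' windows. A match is a description of the letters and does not show binding.

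Across the 8 groups the members followed no common order. NTG microglia had the lowest mean of 6 members, Clec7a, Lpl, Spp1, Gpnmb, Ank and Igf1. The summed level of the 10 genes was 1189 to 1575 CPM in NTG mice, 1603 to 4540 CPM in PS19 mice and 5618 to 10524 CPM over all cultures, with 6319 to 7761 CPM in vehicle libraries. Cultured and adult cells were prepared in separate experiments, and preparation, age and experiment cannot be told apart.

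**Figure D1:**
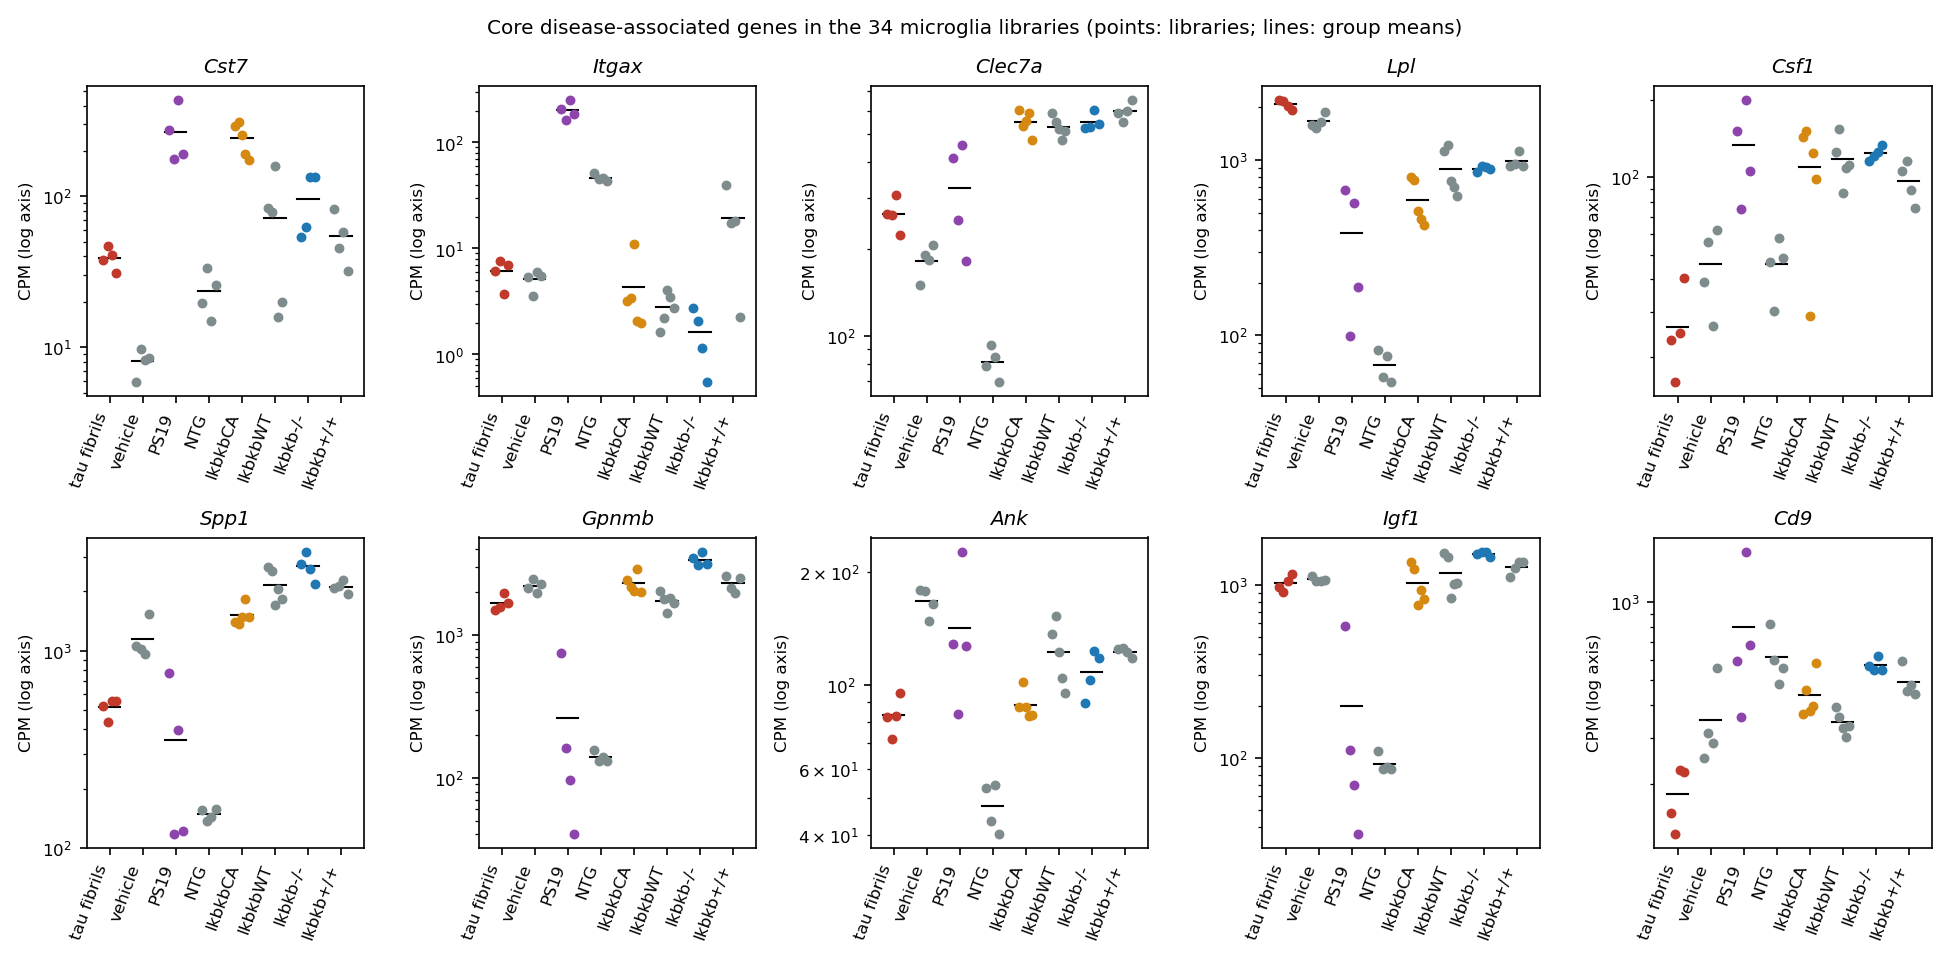
Level of each of the 10 genes in CPM (log axis, scaled separately for each gene) in the 34 libraries by group. Points are libraries and lines are group means. NTG means are the lowest for 6 genes, while Itgax reaches 165 to 251 CPM in PS19 mice and stays at or below 39.9 CPM in every culture.

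Cst7 was highest in PS19 (269 ± 118 CPM, mean ± SD) and IkbkbCA (245 ± 60.2) microglia, which overlapped, and then separated from Ikbkb-/- cells at 96.6 ± 44.7 CPM. Means then ran down through IkbkbWT, Ikbkb+/+, tau fibrils and NTG, each overlapping its neighbour, to vehicle at 8.06 ± 1.60 CPM, which was separate. Itgax was highest in PS19 (202 ± 37.0) and next in NTG mice (46.6 ± 3.81), both separate from the next group. The 6 cultured groups overlapped in sequence from Ikbkb+/+ (19.3 ± 15.5) to Ikbkb-/- (1.62 ± 0.97). Csf1 was also highest in PS19 mice (133 ± 54.3) and ran through overlapping Ikbkb groups to a gap below Ikbkb+/+ (96.5 ± 17.6), with vehicle, NTG and tau fibrils (26.1 ± 10.4) overlapping in turn.

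Clec7a was highest in the 4 Ikbkb groups (528 ± 44.0 to 598 ± 42.8 CPM), which overlapped in turn. A gap separated these from PS19 (325 ± 130) and tau fibrils (264 ± 33.8), and vehicle (182 ± 23.7) and NTG (81.1 ± 9.93) were each separate. Lpl was highest with tau fibrils (2067 ± 124), then vehicle (1654 ± 158), each separate from the next group, and lowest in NTG mice (67.8 ± 13.8), a 30.5-fold range. Spp1, Gpnmb and Igf1 were all highest in Ikbkb-/- cells, at 2680 ± 412, 3398 ± 360 and 1513 ± 51.0 CPM, and lowest in NTG mice, where PS19 overlapped NTG. Ank varied least, 3.49-fold from vehicle (167 ± 14.7) to NTG (47.9 ± 6.99). Cd9 ran from 799 ± 524 in PS19 mice to 183 ± 48.9 with tau fibrils, and only tau fibrils were separate from their neighbour.

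Tau fibrils were added to ask how microglia respond to aggregated tau. The 10 genes moved in both directions: Cst7 and Clec7a rose, Spp1, Ank, Cd9, Csf1 and Gpnmb fell, and 3 genes were not called. For comparison, 14.5% of the 10408 genes tested were called higher and 15.4% lower. Cst7 was at 37.8, 46.9, 40.9 and 31.2 CPM with fibrils and at 5.86, 9.69, 8.20 and 8.49 CPM with vehicle. All treated libraries lay above all vehicle libraries, a 4.65-fold rise (2.22 ± 0.23, FDR = 1.4e-08). Clec7a was at 264, 263, 306 and 223 CPM against 150, 190, 182 and 206 CPM, also without overlap (0.52 ± 0.13, FDR = 0.0040).

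Spp1, the osteopontin gene, was at 523, 437, 558 and 553 CPM with fibrils and at 1053, 1018, 967 and 1527 CPM with vehicle. Every treated library was lower, and Spp1 fell 2.23-fold (-1.16 ± 0.14, FDR = 4.3e-07). Ank was at 82.3, 72.0, 82.6 and 95.1 CPM against 179, 178, 148 and 164 CPM (-1.03 ± 0.13, FDR = 9.5e-07). Cd9 was at 155, 129, 227 and 221 CPM against 252, 315, 287 and 559 CPM (-0.97 ± 0.20, FDR = 4.3e-04). Neither gene's groups overlapped. Gpnmb fell less, from 1992 to 2471 CPM with vehicle to 1502 to 1967 CPM (-0.42 ± 0.13, FDR = 0.014). Csf1, the ligand of the CSF1 receptor, was at 23.3, 15.9, 24.7 and 40.6 CPM against 38.9, 55.9, 26.3 and 62.4 CPM (-0.85 ± 0.25, FDR = 0.011), and its groups overlapped.

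Lpl was at 1916 to 2187 CPM with fibrils and 1515 to 1878 CPM with vehicle, separate but not called (0.30 ± 0.12, FDR = 0.066). Itgax (0.26 ± 0.38, FDR = 0.66) and Igf1 (-0.10 ± 0.12, FDR = 0.60) were not called and overlapped. In all, 7 of 10 members had groups that did not overlap, 3 higher and 4 lower, beside 28.4% of all genes. The median log2 fold change was -0.26 over the members and -0.01 over all genes, and total-count scaling moved the latter to -0.16. Cell markers also differed: 10 microglia markers summed to 11896 to 13620 CPM with fibrils and 4914 to 6327 CPM with vehicle, with 7 of 10 called higher. Of 6 astrocyte markers 4 were called lower (350 to 414 against 643 to 688 CPM), as were 4 of the 6 neuron markers tested (sum of 7, 37.2 to 50.02 against 80.5 to 91.9 CPM). The sums of 5 endothelial markers (57.0 to 65.7 against 101 to 121 CPM) and 2 oligodendrocyte precursor markers (46.5 to 72.3 against 81.1 to 95.4 CPM) were also lower without overlap. Border-associated macrophage markers summed to 921 to 1092 CPM with fibrils and 199 to 271 CPM with vehicle, with 2 of the 3 tested called higher. The macrophage gene Mrc1 overlapped, at 15.6 to 18.4 CPM with fibrils and 6.48 to 19.2 CPM with vehicle. Of the markers summed, Lyve1 had no reads with fibrils and Cd163 none with vehicle, so the sum need not reflect the number of these cells. Reads outside genes made up 16.3% to 22.2% with fibrils and 23.3% to 29.1% with vehicle, so that this measure too separated the groups. The part of these cells and of this measure in the members' changes was not tested. In the 8 fits that left out 1 library, Cst7, Clec7a, Spp1, Ank and Cd9 were called in all 8, and Csf1 and Gpnmb in 6 each.

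Microglia from PS19 mice were compared with NTG microglia to ask what neuronal tau does in the brain. All 10 members had positive log2 fold changes, and Cst7, Itgax and Clec7a were called higher, where 0.0707% of the 11323 genes tested (8 genes) were. Cst7 was at 274, 176, 434 and 191 CPM in PS19 mice and at 19.7, 33.6, 15.0 and 25.8 CPM in NTG mice (3.49 ± 0.35, FDR = 8.2e-04). Itgax was at 206, 165, 251 and 185 CPM against 52.1, 45.3, 45.8 and 43.3 CPM (2.08 ± 0.19, FDR = 8.2e-04). Clec7a was at 412, 252, 455 and 182 CPM against 78.4, 92.7, 84.3 and 69.1 CPM (1.97 ± 0.28, FDR = 0.020). In each of these genes the lowest PS19 mouse lay above the highest NTG mouse. With age in months as a covariate edgeR called 0 of all 11323 genes and so 0 of the 10, with 552 genes and 6 members at an unadjusted p under 0.05. In that fit Cst7 (3.73 ± 0.49, FDR = 0.052), Itgax (2.15 ± 0.26, FDR = 0.052) and Clec7a (2.06 ± 0.39, FDR = 0.34) kept their sign and were no smaller. At an unadjusted p under 0.05, 7 members passed in the fit without age, beside 977 of 11323 genes. DESeq2 called 6 members, beside 79 genes higher and 19 lower.

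The variation between PS19 mice split the members. Lpl (673, 99.6, 565 and 188 CPM against 54.1 to 82.8 CPM in NTG mice), Ank (128, 84.0, 226 and 127 against 40.3 to 54.4) and Csf1 (152, 75.1, 199 and 105 against 30.2 to 58.1) were each separate from NTG. They were not called, with log2 fold changes of 2.47 ± 0.50 (FDR = 0.11), 1.53 ± 0.28 (FDR = 0.087) and 1.504 ± 0.30 (FDR = 0.11). Together with the called genes, 6 of 10 members were separate, beside 5.9% of all genes. The authors had already reported these 6 genes as upregulated in these PS19 microglia. Neither this count nor that of the called members is therefore an independent result. The remaining 4 overlapped. Spp1 was at 771, 118, 398 and 122 CPM against 138 to 157 CPM, so that mice 2 and 4 lay below all NTG mice (1.23 ± 0.50, FDR = 0.52). Gpnmb was at 750, 162, 97.2 and 40.4 CPM against 132 to 158 CPM (0.90 ± 0.65, FDR = 0.73), and Igf1 at 581, 111, 69.6 and 36.3 CPM against 85.9 to 110 CPM (1.11 ± 0.66, FDR = 0.66). In both genes mice 3 and 4 were below every NTG mouse. Cd9 was at 593, 362, 1559 and 683 CPM against 484 to 818 CPM (0.34 ± 0.36, FDR = 0.83).

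**Figure D2:**
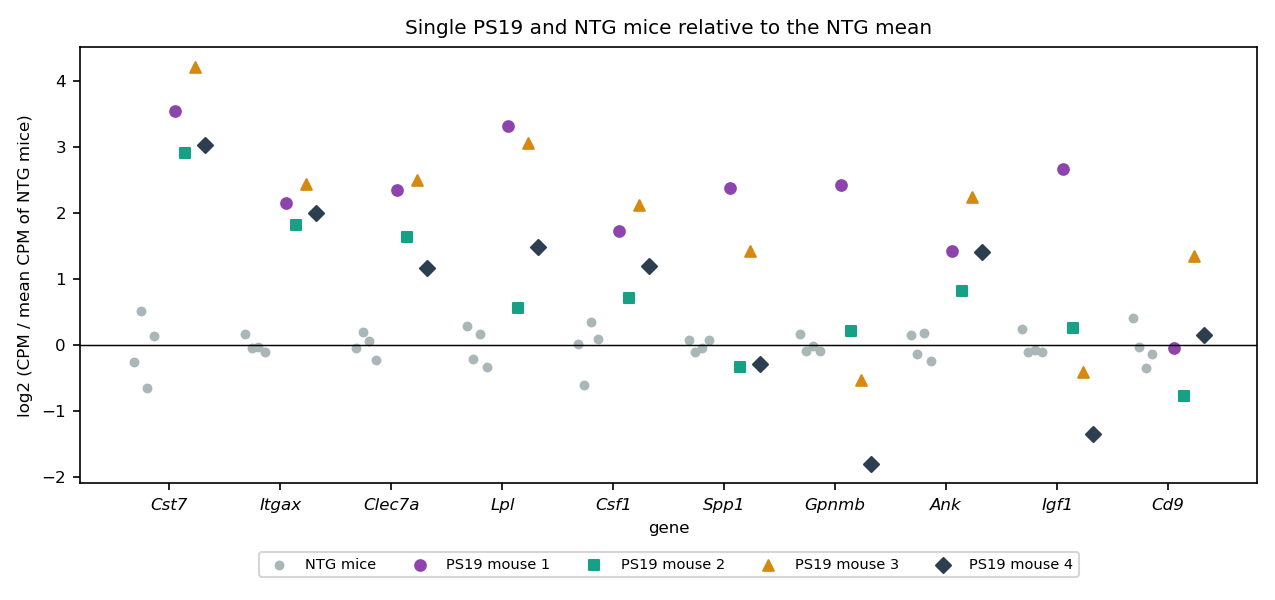
Level of each gene in single mice as the log2 ratio of its CPM to the mean of the 4 NTG mice (gray points). Coloured symbols are PS19 mice 1 to 4. All 4 PS19 mice are above the NTG mice for Cst7, Itgax, Clec7a, Lpl, Csf1 and Ank, while Gpnmb and Igf1 are far above in mouse 1 and below in mice 3 and 4.

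Mouse 3 was the highest PS19 mouse for 6 members and mouse 1 for 4 (Lpl, Spp1, Gpnmb and Igf1), whereas mouse 2 was lowest for 7 and mouse 4 for 3. Mouse 1 was the mouse with high Xist, and it also had the highest sum of 6 border-associated macrophage markers, 1014 CPM against 378 to 493 CPM in the other PS19 mice. Its granulocyte marker sum was 419 CPM against 1003 to 2683 CPM in them. Without mouse 1, Gpnmb and Igf1 changed sign (-0.55 ± 0.35 and -0.42 ± 0.31) and Spp1 dropped to 0.47 ± 0.37. Cst7 (3.47 ± 0.37, FDR = 0.0036) and Itgax (2.06 ± 0.21, FDR = 0.0026) were still called, and Clec7a was not (1.82 ± 0.28, FDR = 0.057). Over all 8 fits that left out 1 mouse, Cst7 and Itgax were called in 8 and Clec7a in 3. The 10 microglia markers summed to 33185 to 47795 CPM in PS19 and 41707 to 47012 CPM in NTG mice. Astrocyte markers summed to 859, 1088, 2032 and 1615 CPM in PS19 mice 1 to 4, against 687 to 1051 CPM in NTG mice. The part of other cells in the members' changes was not tested. The median log2 fold change of the members was 1.52, beside 0.004 over all genes.

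Constitutively active IKKβ was used to ask what NF-κB activation alone does. Among the members Cst7 rose and Spp1 and Ank fell in IkbkbCA cells, and 7 were not called. Of the 11697 genes tested, 7.31% were called higher and 7.16% lower. Cst7 was at 293, 312, 255, 192 and 175 CPM in IkbkbCA and at 83.9, 79.2, 160, 15.9 and 20.0 CPM in IkbkbWT libraries. All IkbkbCA libraries were above all IkbkbWT libraries (1.76 ± 0.51, FDR = 0.040), the only member without overlap, beside 12.3% of all genes. This call was lost in 9 of 10 fits that left out 1 library, although the log2 fold change stayed between 1.503 and 2.305. Spp1 was at 1398, 1367, 1474, 1830 and 1487 CPM against 2649, 2539, 1710, 2046 and 1820 CPM (-0.53 ± 0.13, FDR = 0.018). Ank was at 87.6, 102, 87.3, 82.5 and 83.4 CPM against 137, 153, 123, 104 and 95.5 CPM (-0.49 ± 0.12, FDR = 0.015). In both genes 4 of 5 IkbkbCA libraries lay below all IkbkbWT libraries. In the fits that left out 1 library Spp1 was called in 5 of 10 and Ank in 7 of 10. Reads outside genes made up 12.4% to 13.99% in IkbkbCA and 15.9% to 18.7% in IkbkbWT libraries, without overlap, and the part of this in the values was not tested.

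Within the 3 sets the ratios of IkbkbCA to IkbkbWT were steadier for some members. Lpl was at 802, 772, 510, 460 and 425 CPM in IkbkbCA and 1123, 1209, 757, 701 and 620 CPM in IkbkbWT libraries (-0.59 ± 0.22, FDR = 0.11). Its log2 ratio was -0.57, -0.57 and -0.58 in the 3 sets, and with the set as a covariate it was called (-0.60 ± 0.06, FDR = 1.4e-05). Cst7 was 3.71-fold, 1.59-fold and 10.2-fold higher in the 3 sets, and with the covariate it was called (2.13 ± 0.30, FDR = 1.7e-04). The log2 ratio of Spp1 was -0.91 within libraries 1 and 2 and -0.21 and -0.22 in the other sets. With the covariate Gpnmb (0.38 ± 0.10, FDR = 0.0098) and Igf1 (-0.22 ± 0.06, FDR = 0.020) were called too, which made 6 of 10, beside 24.3% of all genes in that fit. Since the sets were found in these data, these calls are alternatives to the fit above.

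**Figure D3:**
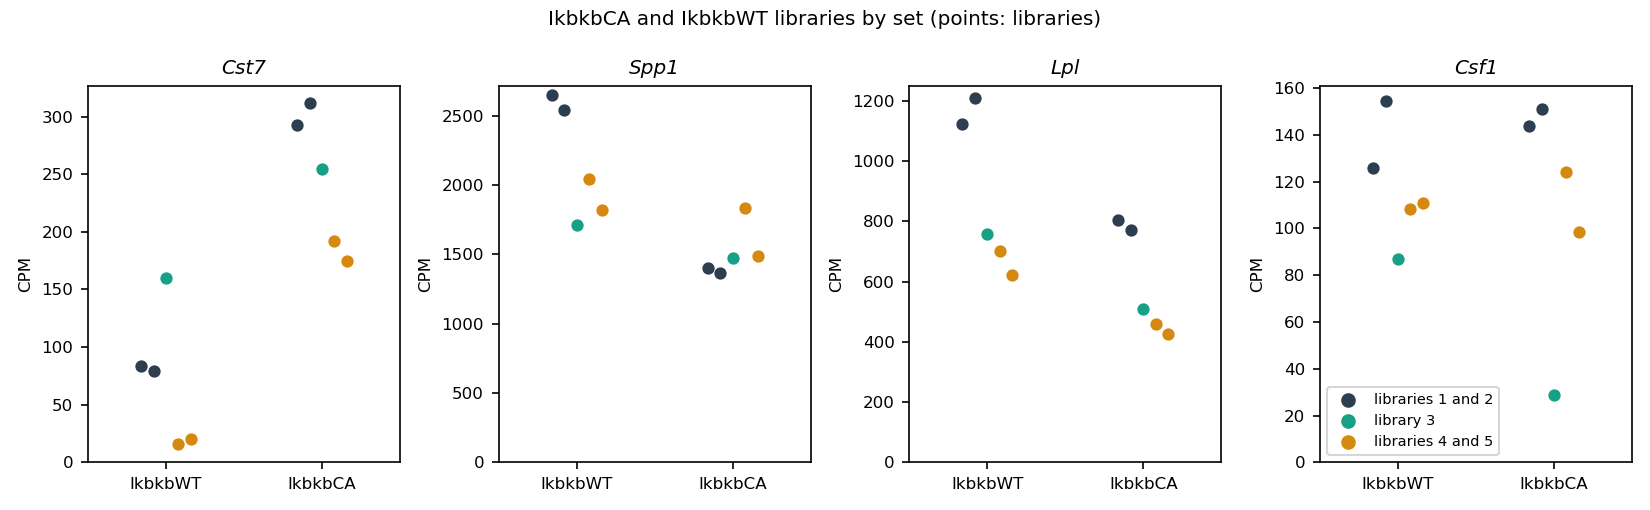
CPM (axes start at 0) of Cst7, Spp1, Lpl and Csf1 in the single IkbkbWT and IkbkbCA libraries, coloured by set. Cst7 is higher and Lpl lower in IkbkbCA than in IkbkbWT libraries of every set, and Csf1 differs mainly in library 3 (28.9 CPM).

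Csf1 was at 144, 151, 28.9, 124 and 98.6 CPM in IkbkbCA libraries and at 87.0 to 155 CPM in IkbkbWT libraries, so that library 3 stood alone (-0.12 ± 0.34, FDR = 0.87). Itgax was at 11.0 CPM in IkbkbCA library 3 and at 1.96 to 3.44 CPM in the others, against 1.62 to 4.09 CPM (0.58 ± 0.48, FDR = 0.50). That library also held the highest granulocyte marker sum of its group, 85.3 CPM, where the other IkbkbCA libraries held 16.9 to 32.6 CPM and IkbkbWT libraries 6.46 to 12.0 CPM. Library 3 of each group had the highest oligodendrocyte marker sum, 1751 CPM in IkbkbCA and 4803 CPM in IkbkbWT. The part of these cells in the values was not tested. Gpnmb (0.38 ± 0.12, FDR = 0.059), Cd9 (0.32 ± 0.13, FDR = 0.12), Igf1 (-0.22 ± 0.19, FDR = 0.53) and Clec7a (0.03 ± 0.08, FDR = 0.85) were not called. The median was -0.05 over the members and -0.05 over all genes.

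Deletion of Ikbkb was used to ask which genes need the kinase in culture. Of the 10 members 5 were higher in Ikbkb-/- cells, Gpnmb, Igf1, Spp1, Csf1 and Cst7, and Itgax was lower. Of the 11242 genes tested, 7.64% were called higher and 6.96% lower. Gpnmb was at 3494, 3089, 3866 and 3142 CPM in Ikbkb-/- and at 2612, 2144, 1989 and 2508 CPM in Ikbkb+/+ libraries (0.56 ± 0.10, FDR = 9.8e-04). Igf1 was at 1509, 1555, 1544 and 1442 CPM against 1115, 1253, 1347 and 1350 CPM (0.26 ± 0.08, FDR = 0.033). Both genes were separate. Spp1 was at 2754, 3179, 2605 and 2181 CPM against 2077, 2120, 2285 and 1949 CPM (0.35 ± 0.10, FDR = 0.029). Csf1 was at 115, 121, 125 and 134 CPM against 106, 116, 89.2 and 75.7 CPM (0.38 ± 0.12, FDR = 0.036). Cst7 was at 53.6, 62.6, 135 and 135 CPM against 83.0, 45.5, 58.5 and 32.04 CPM (0.90 ± 0.27, FDR = 0.034). The groups overlapped for these 3 genes. For Cst7 only Ikbkb-/- libraries 3 and 4 lay above all Ikbkb+/+ libraries. Ikbkb-/- libraries 1 and 2 also differed from 3 and 4 in border-associated macrophage markers (1311, 1377, 949 and 1003 CPM). Aif1 split likewise (1555, 1509, 2082 and 2123 CPM), whereas Trem2 held at 1014 to 1042 CPM. The part of this split in the Cst7 values was not tested. When 1 library was left out, Gpnmb was called in 8 of 8 fits, Cst7 and Igf1 in 3 and Spp1 and Csf1 in 2, and DESeq2 did not call Cst7 (0.82 ± 0.44, FDR = 0.25).

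Itgax was at 2.73, 2.07, 1.15 and 0.55 CPM in Ikbkb-/- cells, from 3 to 10 reads a library, and at 39.9, 17.2, 18.03 and 2.25 CPM in Ikbkb+/+ cells. It fell 12.3-fold (-3.63 ± 0.70, FDR = 0.0015), with Ikbkb+/+ library 4 inside the Ikbkb-/- range. Marker sums of several other cell types, though not of all, ran in a similar order over these Ikbkb+/+ libraries. Granulocyte markers were at 402, 92.8, 38.4 and 8.21 CPM, against 8.01 to 12.6 CPM in Ikbkb-/- libraries. Astrocyte markers were at 204, 151, 97.9 and 52.4 CPM, against 36.1 to 71.4 CPM. Without the 2 Ikbkb+/+ libraries highest in granulocyte markers the log2 fold change of Itgax was -2.77 ± 0.66 (FDR = 0.011). Of the 2 libraries then left, library 3 was still above all Ikbkb-/- libraries in granulocyte markers and in Itgax, and library 4 in neither. The part of any of these cells or genes in the Itgax values was not tested. Clec7a, Lpl, Ank and Cd9 were not called, with log2 fold changes of -0.16 to 0.22. Lpl was separate all the same (847 to 916 against 920 to 1115 CPM), so that 3 of 10 members were, beside 17.9% of all genes. The median was 0.24 over the members and 0.0002 over all genes.

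**Figure D4:**
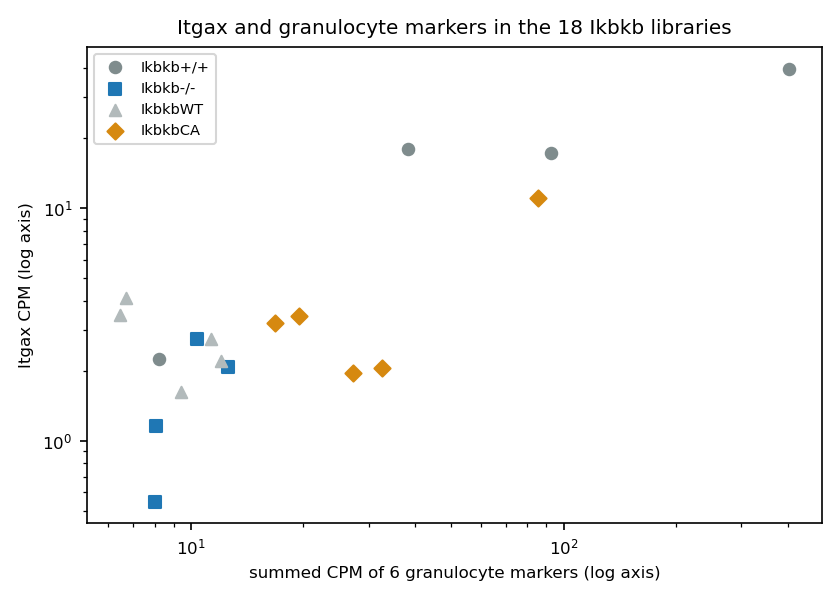
Itgax in CPM against the summed CPM of 6 granulocyte markers (log axes) in the 18 libraries of the Ikbkb experiments, each point a library. The 3 Ikbkb+/+ libraries and 1 IkbkbCA library with Itgax at 11.0 CPM or more all have marker sums of 38.4 CPM or more.

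The sex mix moved with genotype here, as given above for Ddx3y, which did not overlap between Ikbkb-/- and Ikbkb+/+ libraries. Among IkbkbWT libraries Ddx3y split 1 to 3 from 4 and 5, along the library sets. Cst7 differed there too, at 83.9, 79.2 and 160 CPM against 15.9 and 20.0 CPM. A fit with Ddx3y therefore cannot tell sex mix apart from genotype or library set. With Ddx3y as a covariate in a fit of all 18 Ikbkb libraries, edgeR called 0 of the 10 members in Ikbkb-/- cells, beside 3.29% of all genes. In that fit 4 members had an unadjusted p under 0.05, beside 2044 of 12352 genes. Cst7 changed sign (-0.68 ± 0.54). Itgax stayed at -3.55 ± 0.99 (FDR = 0.055) and Gpnmb at 0.50 ± 0.17 (FDR = 0.14). In the fit without Ddx3y, 7 members had an unadjusted p under 0.05, beside 3015 of 11242 genes. DESeq2 called 5 members, beside 786 genes higher and 704 lower. The border-associated macrophage marker sum was also lower in Ikbkb-/- cells (949 to 1377 against 1900 to 2245 CPM), and oligodendrocyte markers were higher (439 to 524 against 225 to 327 CPM). The part of these in the members' changes was not tested.

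**Figure D5:**
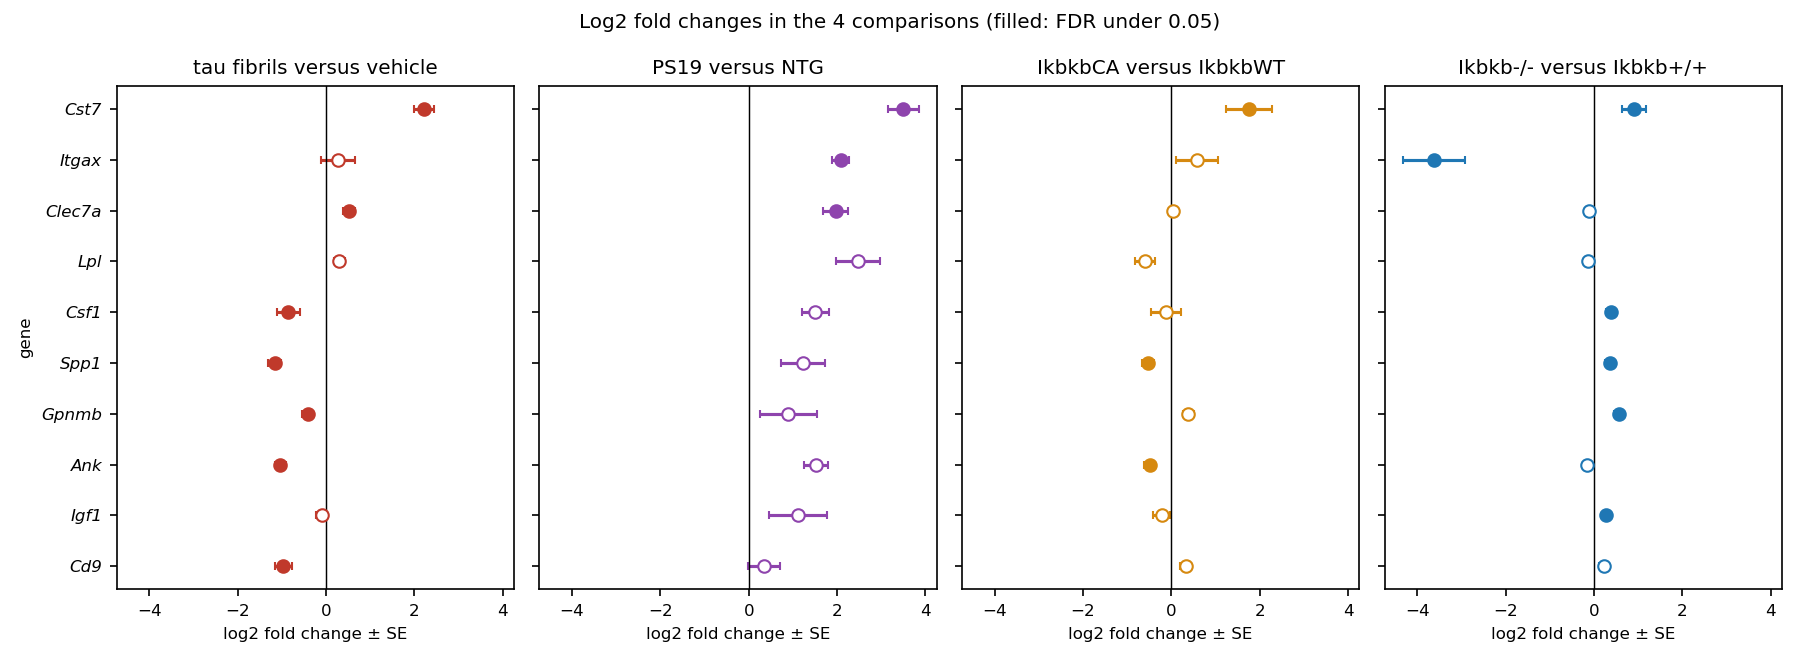
Log2 fold change ± SE of the 10 genes in the 4 comparisons, filled where the FDR was under 0.05. All 10 are above 0 in PS19 mice, and Itgax is at -3.63 in Ikbkb-/- cells.

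The comparisons were then set against each other by testing the difference of their log2 fold changes. Tau fibrils and PS19 differed for 7 members, beside 8.07% of all genes, and each was lower with fibrils. The differences were -2.65 ± 0.31 for Ank, -2.47 ± 0.55 for Spp1, -2.43 ± 0.44 for Csf1, -2.25 ± 0.52 for Lpl, -1.89 ± 0.34 for Itgax, -1.54 ± 0.32 for Clec7a and -1.37 ± 0.42 for Cst7. When 1 library was left out, Cst7 was called in 4 of 16 fits and the others in all 16. Tau fibrils and IkbkbCA differed for 4 members, beside 9.42% of all genes: Cd9 (-1.36 ± 0.29), Gpnmb (-0.87 ± 0.17), Spp1 (-0.70 ± 0.21) and Ank (-0.61 ± 0.18). In fits without 1 library Spp1 was called in 5 of 18 and Ank in 8 of 18, and Cd9 and Gpnmb in all 18. PS19 and IkbkbCA differed for Lpl (3.05 ± 0.57), Ank (2.01 ± 0.30) and Clec7a (1.93 ± 0.28), beside 3.32% of all genes. IkbkbCA and Ikbkb-/- differed for Itgax (4.28 ± 0.96) and Spp1 (-0.87 ± 0.19), beside 3.12% of all genes. For Cst7 the difference between IkbkbCA and Ikbkb-/- was 0.91 ± 0.69 (FDR = 0.58). Comparisons between cultured and adult cells also differ in age, preparation and experiment, which cannot be told apart. The fibril and Ikbkb cultures were separate experiments as well, and their controls differed. Mrc1 had a median of 12.9 CPM in vehicle and 1106 CPM in IkbkbWT libraries. The difference between tau fibrils and IkbkbCA therefore cannot be told apart from experiment.

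Other gene lists of the same state were counted in the same way, with no test against the members. Of 7 early disease-associated genes, 4 rose and 1 fell with tau fibrils, led by the MHC class I subunit B2m (2.66 ± 0.15, FDR = 4.1e-14) and the ferritin gene Fth1 (1.63 ± 0.14, FDR = 6.7e-10), with Ctsd lower. In IkbkbCA cells 3 of 7 rose (B2m, Lyz2 and Fth1, at 1.29, 1.24 and 1.18) and in Ikbkb-/- cells 2 rose and 1 fell. In PS19 mice edgeR called 0 of 7, with 5 at an unadjusted p under 0.05 and 1 called by DESeq2. Of the other late genes tested, 11 of 22 rose and 4 fell with fibrils, 1 of 21 rose in PS19 mice (with 12 at an unadjusted p under 0.05 and 7 called by DESeq2), 6 of 23 rose and 5 fell in IkbkbCA cells, and 4 of 23 rose and 3 fell in Ikbkb-/- cells. Axl, a receptor for dying cells, was called higher in all 4 comparisons (0.66, 2.67, 0.99 and 0.91 in that order). Trem2 and Tyrobp, the receptor and adaptor needed for the late stage, were called in none, with log2 fold changes of -0.19 to 0.16 and 0.10 to 0.25.

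Among 14 to 16 homeostatic genes tested, 6 rose and 1 fell with tau fibrils, 2 rose and 3 fell in IkbkbCA cells, and 1 rose and 6 fell in Ikbkb-/- cells. In PS19 mice edgeR called 0 of 16, with 5 at an unadjusted p under 0.05 and 1 called by DESeq2. Tmem119 rose with fibrils (2.27 ± 0.24, FDR = 2.9e-08) and in IkbkbCA cells (1.60 ± 0.32, FDR = 0.0051). P2ry12 was lower in Ikbkb-/- cells (-1.21 ± 0.28, FDR = 0.0062), at 129 to 144 CPM against 480, 407, 280 and 111 CPM, so that Ikbkb+/+ library 4 lay below all Ikbkb-/- libraries. Cx3cr1, of which 1 allele is disrupted in IkbkbCA and Ikbkb-/- cells, was lower in both (-0.56 and -1.16) and higher with fibrils (1.08). Of the members' receptors, binding partners and processing enzymes, 8 of 22 rose and 4 fell with fibrils, among them Igfbp4, which binds IGF-1 (2.30 ± 0.15, FDR = 2.3e-12), and Ctsc, a cathepsin inhibited by cystatin F (2.09 ± 0.14, FDR = 1.0e-12). In IkbkbCA cells 5 of 24 rose and 3 fell, and in Ikbkb-/- cells 1 rose and 3 fell. In PS19 mice edgeR called 0 of 24, with 1 at an unadjusted p under 0.05 and 0 called by DESeq2. Of the 4 MiT/TFE factors, regulators of lysosomal genes, Tfec, Tfe3 and Mitf rose with fibrils (2.73, 0.97 and 0.85). Tfec fell in IkbkbCA cells (-0.62), and Tfec and Mitf fell in Ikbkb-/- cells (-1.05 and -0.38). None of the 4 was called in PS19 mice, with 0 at an unadjusted p under 0.05 and 0 called by DESeq2.

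Likeness of pattern was measured as the Euclidean distance between the 4 log2 fold changes of 2 genes, over 8856 genes with a mean of at least 10 CPM in some group. Cst7 had no gene within a distance of 1, and its nearest were Axl (1.92) and Xdh (2.10). Itgax had none within 1 either, with Xist (2.09) and Slc1a3 (2.40) nearest. Lpl was nearest to Clec7a (0.83), and Clec7a to Acp1 (0.67). The other members lay in denser regions, where Csf1 was nearest to Cpeb1 (0.16), Cd9 to Cldn12 (0.11), Gpnmb to Unc119 (0.23), Igf1 to Aldh1b1 (0.23), Ank to Gcat (0.37) and Spp1 to Ptpn14 (0.37).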

How the data were processed

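Libraries of 34 mouse microglia samples were made with the 3′ QuantSeq kit, so that counts do not grow with gene length. The deposited files hold whole-number read counts per gene, made by the authors after mapping to GRCm38 with the GENCODE annotation. Their methods name RSEM, while the layout is that of htseq-count. The 5 lines that name no gene were left out, and their share of reads outside genes is given in the report. Of the 47643 identifiers, 47224 matched a symbol of GENCODE M21. Groups came from the sample labels. Counts were tested per comparison in R 4.3.3 with edgeR 4.0.16 (quasi-likelihood test, TMM, filterByExpr with a minimum count of 10) and adjusted by Benjamini-Hochberg over all genes, with FDR under 0.05 called. Differences of effects were contrasts in a joint fit of both comparisons. Alternatives were RLE, total-count scaling, DESeq2 1.42.0, limma-voom 3.58.1, other filters, a joint fit, covariates and leave-one-out fits. On simulated counts, 2-fold changes were recovered in 70.8% (tau fibrils), 29.3% (PS19), 62.9% (IkbkbCA) and 82.8% (Ikbkb-/-) of genes. The named genes were the members, up to 4 called genes with the largest change per list and comparison, 6 preset microglia genes, the 2 nearest genes per member, and Ikbkb. Members, lists and tests were chosen with earlier results of these data known. Lists of cell markers (microglia, neuron, astrocyte, oligodendrocyte, granulocyte, border-associated macrophage and others) were summed as CPM. The library sets and the sex covariate were chosen after seeing the data. The sequences are from RefSeq.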

Additional observations from a re-analysis of the deposited data

Results flagged for a closer look

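Of 80 sets of replicate values (10 genes in 8 groups), 8 had a sample far from the others of its group, where chance alone is expected to give about 1 in 20. All were the highest of their group. Itgax stood at 11.0 CPM in IkbkbCA library 3 (next 3.44), Lpl at 1115 CPM in Ikbkb+/+ library 3 (next 952), Spp1 at 1527 CPM in vehicle library 4 (next 1053) and at 1830 CPM in IkbkbCA library 4 (next 1487), and Ank at 102 CPM in IkbkbCA library 2 (next 87.6). Igf1 stood at 1127 CPM in vehicle library 1 (next 1066), at 581 CPM in PS19 mouse 1 (next 111) and at 110 CPM in NTG mouse 1 (next 87.9).

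Of 40 differences between the effects of 2 comparisons tested with edgeR, 16 were called. Between tau fibrils and PS19 they were -2.43 for Csf1, -2.25 for Lpl, -2.65 for Ank, -2.47 for Spp1, -1.89 for Itgax, -1.37 for Cst7 and -1.54 for Clec7a on the log2 scale. Between tau fibrils and IkbkbCA they were -0.61 for Ank, -0.70 for Spp1, -0.87 for Gpnmb and -1.36 for Cd9. Between PS19 and IkbkbCA they were 3.05 for Lpl, 2.01 for Ank and 1.93 for Clec7a, and between IkbkbCA and Ikbkb-/- they were -0.87 for Spp1 and 4.28 for Itgax.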

How the results depend on the processing

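No paired analysis was possible because the labels give no replicate numbers. The library numbers used here only name the samples, and the library sets of IkbkbCA and IkbkbWT were read from the data. For PS19 the 3 members called became 6 with DESeq2, 9 with no filter, 7 in a fit of all 34 libraries and 0 with age as a covariate, and 2 to 6 when 1 mouse was left out. Of all genes, DESeq2 called 79 higher and 19 lower of 11323 there. The fit with no filter called 127 and 39 of 22632, and the fit of 34 called 300 and 75 of 13722. For IkbkbCA the 3 became 5 with DESeq2, 1 in the fit of 34, 6 with the library set, 5 within libraries 1 and 2 and 5 with Ddx3y, and 0 to 3 in leave-one-out fits. Of all genes, DESeq2 called 1094 higher and 854 lower of 11697 there, and the fit of 34 called 739 and 447 of 13722. With the library set 1286 and 1560 of 11697 genes were called, and with Ddx3y 1171 and 982 of 12352. The fit within libraries 1 and 2 called 1427 and 1203 of 11499. For Ikbkb-/- the 6 became 1 in the fit of 34 and 0 with Ddx3y, and 2 to 5 in leave-one-out fits. Of all genes, the fit of 34 called 264 higher and 251 lower of 13722 there, and the fit with Ddx3y 207 and 199 of 12352. The 7 of tau fibrils stayed at 5 to 8. Differences gave 6 to 8 (tau fibrils against PS19), 2 to 4 (tau fibrils against IkbkbCA, 1 in the fit of 34), 3 to 5 (PS19 against IkbkbCA, 5 with DESeq2, with no filter and in the fit of 34) and 2 (IkbkbCA against Ikbkb-/-, 1 with limma-voom and in the fit of 34) in leave-one-out fits.

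Of the values that changed sign, Cst7 in Ikbkb-/- cells alone was called in the fit of the report. Adjusting for the percentage of reads that missed all genes gave -0.021 for Cd9 in PS19. In IkbkbCA, Itgax was -0.60 within libraries 4 and 5, Clec7a -0.027 with total-count scaling and -0.0014 within libraries 1 and 2, and Csf1 0.079 and 0.037 within libraries 1 and 2 and within 4 and 5. Cst7 in Ikbkb-/- was -0.68 with Ddx3y. Leaving out 1 library gave -0.55 to 1.26 for Gpnmb, -0.42 to 1.46 for Igf1 and -0.20 to 0.61 for Cd9 in PS19, and -0.084 to 0.77 for Itgax and -0.27 to 0.14 for Csf1 in IkbkbCA. The cause was not tested.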
